A study of Mus musculus with 24 samples.

Results

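The 10 genes described here encode the pore-forming subunits of AMPA and NMDA receptors, the ion channels that carry most fast excitatory transmission in the brain. Gria1, Gria2, Gria3 and Gria4 encode the 4 AMPA receptor subunits. Grin1, Grin2a, Grin2b, Grin2c, Grin2d and Grin3a encode 6 NMDA receptor subunits. The genes were chosen by symbol, and each had 1 row in the expression table of 36333 genes. The table is labelled TPM, a unit that is scaled for transcript length and sums to 1000000 in each library. All 10 were among the 17267 genes tested, whose TPM averaged 0.5 or more over the libraries.

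Bulk poly(A) RNA sequencing was performed on lesional and perilesional brain tissue of 24 male mice aged 12-16 weeks, 1 library per mouse, at 5 days post injury (dpi). Traumatic brain injury (TBI) was produced in 20 mice by controlled cortical impact (CCI), a model in which a piston deforms the exposed cortex. The other 4 mice had a sham operation, by the methods a skin incision without craniotomy or impact. Differences from sham therefore include the craniotomy as well as the impact. The injured mice received vehicle (n = 5), PLX3397 in the chow at 290 mg/kg of food from shortly after CCI (n = 5), Anakinra by repeated subcutaneous injections of 100 mg/kg (n = 5), or both (PLX3397+Anakinra, n = 5). PLX3397 inhibits the CSF1 receptor, on which microglia depend for survival, and Anakinra is an antagonist of the IL-1 receptor. The labels give the strain as C57BL6N and the methods give C57BL/6JRj. The labels name no engineered allele. By the methods, sham mice received vehicle as well.

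The labels call the tissue cortex, whereas the methods describe sections that also held striatum, dorsal hippocampus and thalamus, and markers of striatum and hippocampus were present. In the sham mice Drd1 and Drd2, dopamine receptors of striatal projection neurons, were at 46.8 ± 1.53 and 58.2 ± 5.01 TPM (SD, n = 4). Prox1, a transcription factor of hippocampal granule cells, was at 16.3 ± 0.806 TPM. Whether these levels came from striatum and hippocampus or from other regions was not tested. Of 6 cerebellar genes 4 were below 0.5 TPM on average, among them Pcp2 and Gabra6 with sham means of 0 and 0.012 TPM, while Cbln1 and Calb1, which are also expressed in other brain regions, were at 28.0 and 130.4 TPM. Libraries had between 22160 and 23249 genes above 0 and each summed to 1000000 TPM. The table holds no counts, so the depth behind each value is unknown. No pair of libraries held identical values. In bulk tissue, fewer cells of a type and less RNA per cell cannot be told apart. Vehicle mice alone carry the letter B in their animal number. If that letter marks a batch, the batch and the vehicle treatment cannot be told apart.

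AMPA and NMDA receptors are assembled from subunits around a central pore. AMPA receptors open and close within milliseconds and carry the bulk of the excitatory current. Their calcium permeability is set by GluA2, the product of Gria2: adenosine deamination of its transcript by ADAR2 replaces a glutamine codon in the pore loop by one read as arginine. NMDA receptors need the obligatory GluN1 subunit (Grin1) together with GluN2 or GluN3 subunits, and the GluN2 subunit sets their kinetics: GluN2B (Grin2b) predominates early in development and GluN2A (Grin2a) later. Overactivation of these receptors by glutamate released from damaged tissue is a classical mechanism of excitotoxic injury after TBI.

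The coding stretch around that codon is shown for the 4 AMPA subunits because the editing of this codon in Gria2 sets the calcium permeability of the channel. The stretches were read from coding GENCODE M21 transcripts (GRCm38) as 62 bases within 1 exon, and the capitals mark the Q/R-site codon.
Gria1: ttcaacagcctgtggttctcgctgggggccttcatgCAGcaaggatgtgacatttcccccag
Gria2: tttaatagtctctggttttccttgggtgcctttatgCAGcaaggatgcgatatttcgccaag
Gria3: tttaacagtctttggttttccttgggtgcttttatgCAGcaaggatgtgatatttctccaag
Gria4: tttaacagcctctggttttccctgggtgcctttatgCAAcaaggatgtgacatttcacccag
They lie on chr11:57243058-57243119 (+ strand, exon 11 of 16) for Gria1, chr3:80706888-80706949 (- strand, exon 11 of 16) for Gria2, chrX:41610229-41610290 (+ strand, exon 11 of 16) for Gria3 and chr9:4464114-4464175 (- strand, exon 12 of 17) for Gria4. The Gria2 stretch shared 57 of its 62 bases with Gria3, 54 with Gria4 and 49 with Gria1. All 4 genes encode glutamine at this codon, written CAG in Gria1, Gria2 and Gria3 and CAA in Gria4. The TPM values count edited and unedited Gria2 transcripts together.

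RefSeq promoters (GRCm38.p6) were found for 5 of the 10 genes, and the 250 bases before the start are printed for the gene that differed most between vehicle and sham mice and for one that did not pass the test there. Capitals mark the GC box, the letters GGGCGG searched on both strands, which is bound by Sp-family factors.
Grin1: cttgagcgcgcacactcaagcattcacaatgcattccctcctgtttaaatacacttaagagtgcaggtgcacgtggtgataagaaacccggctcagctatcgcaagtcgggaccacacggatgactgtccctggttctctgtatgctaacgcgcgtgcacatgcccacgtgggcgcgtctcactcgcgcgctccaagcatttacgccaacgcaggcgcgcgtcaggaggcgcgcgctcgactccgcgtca
Grin2c: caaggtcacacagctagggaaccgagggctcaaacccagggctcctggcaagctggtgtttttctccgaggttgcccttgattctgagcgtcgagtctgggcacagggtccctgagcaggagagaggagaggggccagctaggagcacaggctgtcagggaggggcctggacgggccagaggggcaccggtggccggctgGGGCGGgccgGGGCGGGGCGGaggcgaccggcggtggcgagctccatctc
The Grin1 stretch lies on chr2:25319188-25319437 (- strand) and holds no GC box, and the Grin2c stretch lies on chr11:115267244-115267493 (- strand) and holds 3, of which the last pair overlaps by 1 base. The GC box was present in 32.7% of the 32851 promoters of the table over the same 250 bases, and 8.47% held 3 or more. No GC box was present in the same window of Gria2, Gria4 or Grin2d.

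TPM is scaled by transcript length, so levels can be compared between genes. The methods name the unit TPM but add that CLC calls it CPM, a unit without length scaling. If the values are CPM, the order, shares and ratios of different genes also reflect transcript length. In the sham mice Grin1 had the highest level, 497 ± 18.3 TPM (SD, n = 4), ahead of Gria1 at 237 ± 17.9 TPM, Gria2 at 231 ± 15.5 TPM, Gria3 at 145 ± 8.41 TPM and Gria4 at 60.1 ± 3.96 TPM. The other NMDA subunits were far lower. Grin2b was at 30.9 ± 3.07 TPM, Grin2c at 26.3 ± 1.90 TPM, Grin3a at 18.9 ± 2.51 TPM, Grin2a at 13.6 ± 0.923 TPM and Grin2d at 12.9 ± 0.83 TPM. Gria1 and Gria2 overlapped in range between sham mice, as did Grin2b with Grin2c and Grin2a with Grin2d, so these neighbours in the order did not separate beyond their spread. Grin1 made up 82.9% ± 0.793 of the summed TPM of the 6 NMDA genes in sham mice.

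**Figure D1:**
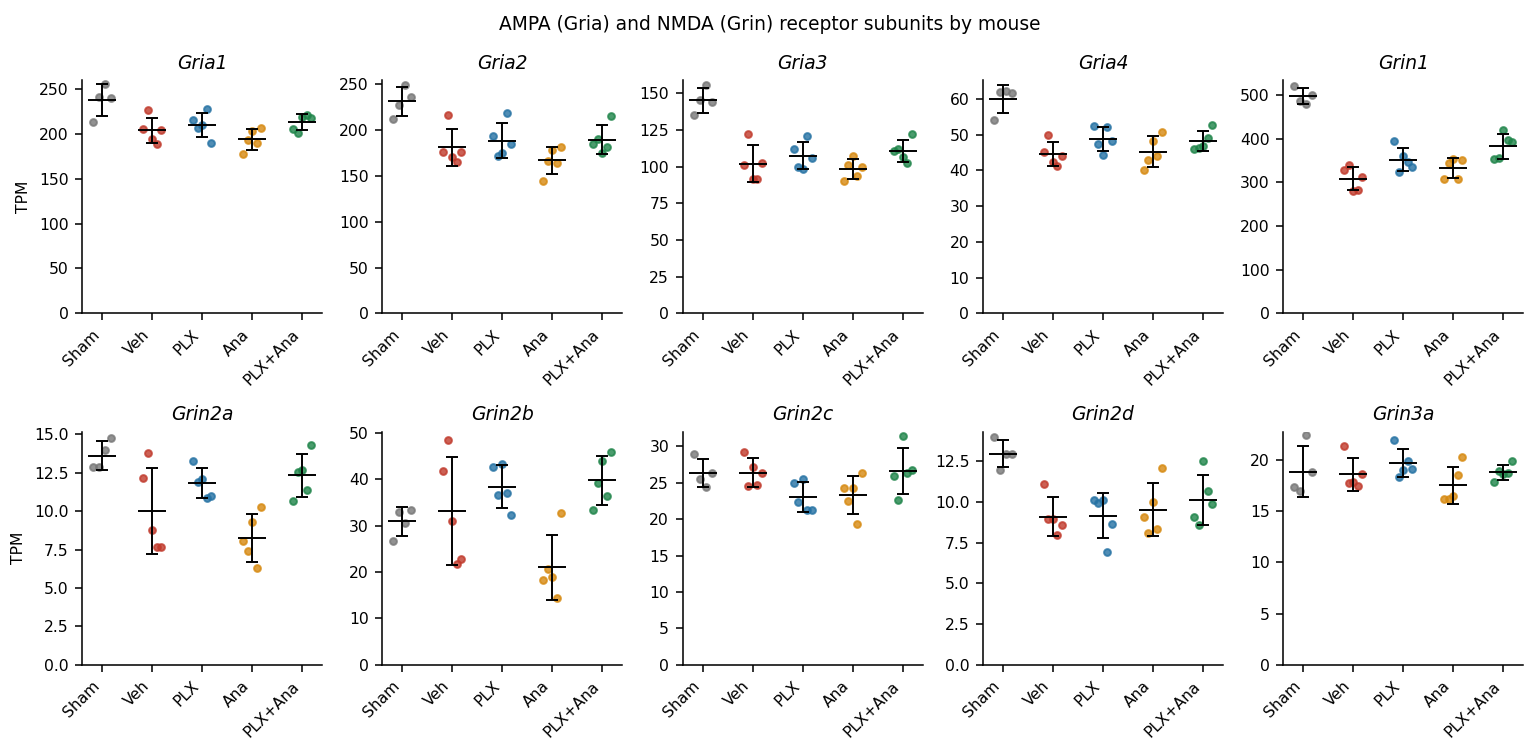
TPM (y axis, from 0, with its own scale for each gene) of the 10 receptor subunits in each of 24 mice, by group (Veh, vehicle; PLX, PLX3397; Ana, Anakinra). Points are mice, and the bars give the group mean and SD. The 4 sham mice lay above all 5 vehicle mice for Gria3, Gria4, Grin1 and Grin2d, and Grin2b spread from 21.7 to 48.5 TPM within the vehicle group.

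The first comparison asked how receptor transcripts differed after craniotomy and injury without drug. Vehicle mice had lower levels than sham mice for 7 of the 10 genes and higher levels for none (limma on log2(TPM + 1), Benjamini-Hochberg adjusted p below 0.05 over all genes tested), and 27.7% of all genes were lower by the same rule. The ranges of vehicle and sham mice did not overlap for 4 genes, all lower in vehicle mice, against 21% of all genes. The median log2 fold change was -0.39 over the 10 genes and -0.01 over all genes. Fold changes on the log2(TPM + 1) scale understate the change of genes with low TPM.

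Grin1, which every NMDA receptor needs, differed most. Its level was 280.1, 282.3, 311.7, 327.5 and 339 TPM in the vehicle mice and 480.2, 487.4, 499.4 and 522 TPM in the sham mice. The highest vehicle mouse was far below the lowest sham mouse. This was a log2 fold change of -0.69 ± 0.07 (SE), with adjusted p = 2.74e-09.

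All 4 AMPA subunits were lower in vehicle mice. Gria3, which encodes GluA3, was at 91.4, 91.9, 101.2, 102.6 and 122.5 TPM in vehicle mice and at 135.2, 144.2, 145.8 and 155.7 TPM in sham mice, without overlap. Its log2 fold change was -0.51 ± 0.07 (adjusted p = 2.59e-06). Gria4, which encodes the GluA4 subunit enriched in parvalbumin interneurons, ranged from 41.1 to 50.1 TPM against 54.2 to 62.3 TPM, a log2 fold change of -0.42 ± 0.07 (adjusted p = 9.74e-06).

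For the main pair of forebrain AMPA subunits the groups overlapped. Gria2 was at 165.3, 170.4, 176.3, 176.3 and 216.5 TPM in vehicle mice and at 211.9, 227.3, 235.7 and 248.8 TPM in sham mice. The single vehicle mouse at 216.5 TPM lay above the lowest sham mouse. On the log2 scale the groups differed by -0.35 ± 0.08 (adjusted p = 0.000597). Gria1 had the smallest difference of the 4, with a log2 fold change of -0.22 ± 0.06 (adjusted p = 0.00291), and ranged from 188.8 to 225.9 TPM in vehicle mice and from 212.5 to 255.5 TPM in sham mice. Gria1 made up 38.4% ± 0.943 of the summed AMPA TPM in vehicle mice and 35.2% ± 0.417 in sham mice, and Gria3 19.1% ± 0.588 and 21.6% ± 0.349. These shares are a description and were not tested.

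Among the GluN2 genes, Grin2a and Grin2d were lower and Grin2b and Grin2c did not pass the test. Grin2a was at 7.64, 7.69, 8.78, 12.2 and 13.8 TPM in vehicle mice and between 12.8 and 14.7 TPM in sham mice. In the vehicle group 3 mice were low and the mice J01B and J17B were near or within the sham range. The difference on the log2 scale was -0.44 ± 0.14 (adjusted p = 0.00797). Grin2d, which encodes the subunit with the slowest decay, ranged from 7.95 to 11.1 TPM in vehicle mice and from 11.9 to 13.97 TPM in sham mice, with a log2 fold change of -0.47 ± 0.12 (adjusted p = 0.00127).

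Grin2b was at 21.7, 22.9, 30.9, 41.7 and 48.5 TPM in vehicle mice and at 26.7, 30.6, 33.0 and 33.4 TPM in sham mice. The vehicle mice lay on both sides of the sham range. The log2 fold change was 0.03 with a 95% interval from -0.37 to 0.44 (adjusted p = 0.897), so a difference of moderate size in either direction was not detectable. Grin2c, a subunit best known from cerebellar granule cells and astrocytes, had a log2 fold change of 0.00 with an interval from -0.17 to 0.18 (adjusted p = 0.968). Grin3a, whose product GluN3A lowers the calcium permeability of NMDA receptors, had a log2 fold change of -0.02 with an interval from -0.18 to 0.15 (adjusted p = 0.887). For these last 2 genes the intervals were narrow, and both groups had almost the same mean, 26.4 and 26.3 TPM for Grin2c and 18.6 and 18.9 TPM for Grin3a.

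**Figure D2:**
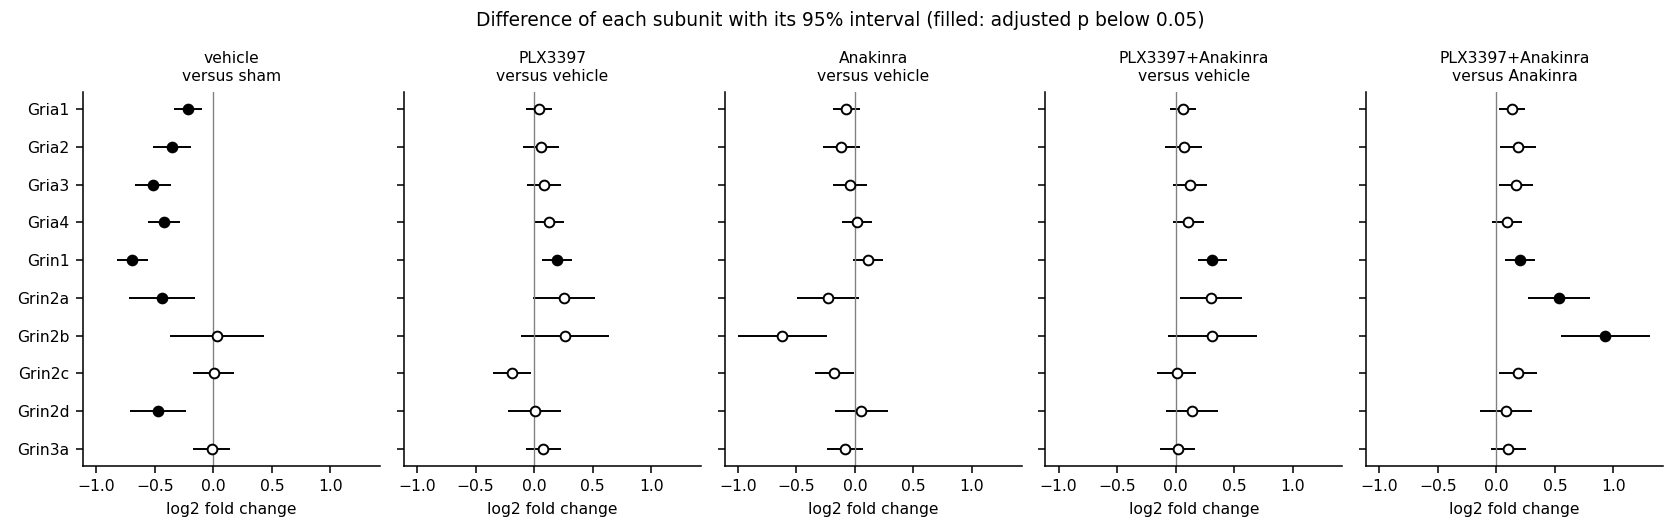
Log2 fold change (x axis, on the log2(TPM + 1) scale) of each receptor subunit (rows) in 5 comparisons, with its 95% interval from limma. Filled points passed an adjusted p of 0.05 over all genes. Filled points of 7 genes lie below 0 in the vehicle and sham comparison, and Grin2b and Grin2a lie farthest to the right where PLX3397+Anakinra was compared with Anakinra.

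Genes whose products work with these receptors were mostly lower in the same comparison. Of 16 auxiliary and assembly proteins of AMPA receptors, 12 were lower and 1 higher, with a median log2 fold change of -0.37. The lower genes included Cacng3 (-0.83 ± 0.07, adjusted p = 2.29e-10), Cacng2 (-0.68 ± 0.07, adjusted p = 1.95e-08), both transmembrane regulators of AMPA receptors, Cnih3 (-0.71 ± 0.10, adjusted p = 1.47e-06), a cornichon export protein, and Frrs1l (-0.53 ± 0.07, adjusted p = 1.09e-06), an assembly factor. The exception was Cacng5 (0.28, adjusted p = 0.0286). Of 23 postsynaptic scaffold and kinase genes, 20 were lower and 1 higher (median -0.52). Camk2a, the calcium-activated kinase that potentiates synapses, was at 978 TPM in vehicle and 1689 TPM in sham mice (-0.79 ± 0.07, adjusted p = 4.1e-10), and Shank1 (-0.76 ± 0.10, adjusted p = 4.1e-07) and Dlgap1 (-0.72 ± 0.05, adjusted p = 2.19e-11) encode scaffold proteins. Homer3 was the scaffold gene that was higher (0.39, adjusted p = 0.0041).

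Other glutamate receptors gave smaller counts. Of 8 further ionotropic genes 4 were lower and none higher: Grik5 (-0.44 ± 0.08, adjusted p = 7.69e-05), Grik3 (-0.38 ± 0.10, adjusted p = 0.00197), Grid1 (-0.27 ± 0.06, adjusted p = 0.000799) and Grik1 (-0.27 ± 0.10, adjusted p = 0.0233), which encode kainate or delta receptor subunits. Of 8 metabotropic receptors 7 were tested and 5 were lower, led by the presynaptic receptor Grm2 (-0.97 ± 0.11, adjusted p = 9.37e-08). All 3 editing enzyme genes were lower, among them Adarb1, which encodes ADAR2 (78.4 against 113 TPM, -0.53 ± 0.09, adjusted p = 1.38e-05). The glutamate transport and metabolism list was mixed, with 6 of 12 tested genes lower and 5 higher. Slc17a7, the vesicular glutamate transporter of cortical neurons, was lower (-0.74 ± 0.07, adjusted p = 4.67e-09), and the astrocyte transporter Slc1a3 was higher (0.55 ± 0.06, adjusted p = 1.47e-08).

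Cell type markers moved in the same comparison. All 10 pan-neuronal genes were lower in vehicle mice (median -0.55), and their summed level was 6360 to 7657 TPM against 10116 to 10473 TPM in sham mice. Of 8 cortical excitatory neuron genes 7 were lower (median -0.86), with sums of 299 to 360.3 TPM against 575 to 621 TPM. Of 8 striatal projection neuron genes 0 passed in either direction by limma, also at an unadjusted p below 0.05. All 8 microglia and macrophage genes were higher (median 2.17), with sums of 2321 to 3184 TPM against 418 to 443 TPM, as were all 8 astrocyte genes (3704 to 4915 TPM against 1522 to 1677 TPM). Among the other lists, 6 of 7 inhibitory neuron, 3 of 7 hippocampal and 4 of 7 thalamic neuron genes were lower, and 7 of 8 oligodendrocyte, 7 of 7 oligodendrocyte progenitor, 5 of 6 endothelial and 6 of 6 fibroblast and meningeal genes were higher. TPM is a share of 1000000, and the part of these changes in the receptor differences was not tested beyond the ratios given next.

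To set each subunit against neuronal transcripts in general, its log2(TPM + 1) was taken relative to the mean of the 10 pan-neuronal genes and tested by a two-sided exact permutation test in 4 comparisons, 40 tests in all. Relative to these genes Grin1 was lower in vehicle than in sham mice by 0.15 on the log2 scale, with group means of -0.45 ± 0.03 (SD, n = 5) and -0.30 ± 0.07 (SD, n = 4). Gria1 was higher by 0.32, Gria4 by 0.12, Grin2b by 0.58, Grin2c by 0.55 and Grin3a by 0.53. These 6 differences had no overlap between the groups and an exact p of 0.0159, the smallest that 5 against 4 mice allow (adjusted p = 0.0488). Gria2, Gria3, Grin2a and Grin2d did not pass, with differences of 0.19, 0.03, 0.10 and 0.07. The pan-neuronal genes were themselves lower in vehicle mice (median -0.55), so a gene with unchanged TPM comes out higher on this scale. By limma Grin2b, Grin2c and Grin3a had log2 fold changes of 0.03, 0.00 and -0.02. The share of all genes that would pass the same ratio test was not computed.

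**Figure D3:**
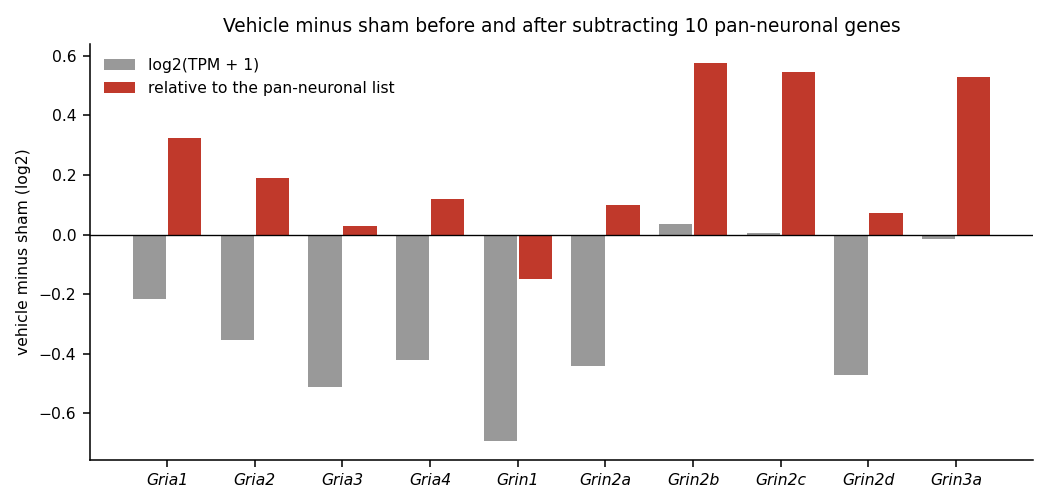
Vehicle minus sham (y axis, log2) for each receptor subunit (x axis), as the difference of log2(TPM + 1) from limma (grey bars) and after subtracting the mean of 10 pan-neuronal genes in the same library (red bars). The grey bars lie below 0 by 0.22 to 0.69 for 7 genes, and the red bars of Grin2b, Grin2c and Grin3a reach 0.53 to 0.58.

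The relative values depend on the reference genes. Against 8 cortical excitatory neuron genes in place of the pan-neuronal genes, the Grin1 difference turned to 0.0702 and 0 of the 40 tests passed, against 13 with the pan-neuronal genes. Leaving out 1 mouse gave between 0 and 14 passing tests, and 0 without any 1 of 17 mice.

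All 4 injured groups were next set against the same sham mice, so these comparisons share their controls and their values stand side by side. PLX3397 mice had 6 genes lower than sham, against 22.5% of all genes: the 4 AMPA genes, Grin1 and Grin2d. Anakinra mice had 8 lower, against 29.2% of all genes, which were these 6 with Grin2a and Grin2b. PLX3397+Anakinra mice had 6 lower, against 18.1% of all genes, and these were the same 6 genes as under PLX3397 alone. None of the 10 was higher than sham in any group in this fit, whereas Grin2b was higher in 3 of the groups and Grin3a in 1 in the fit with a library covariate given further on. The Grin1 mean was 497 TPM in sham, 308 ± 26.4 in vehicle, 334 ± 23.0 in Anakinra, 353 ± 26.8 in PLX3397 and 383 ± 28.4 TPM in PLX3397+Anakinra mice (SD). The corresponding log2 fold changes from sham were -0.69 in vehicle, -0.58 in Anakinra, -0.50 in PLX3397 and -0.38 in PLX3397+Anakinra mice, each with an SE of 0.07. For Gria3 these values were -0.51, -0.56, -0.43 and -0.39 in that order. The Gria1 difference under PLX3397 was lost without PLX3397 mouse J20 or sham mouse J15 (adjusted p up to 0.0779), and under PLX3397+Anakinra without mice J03 or J04 or sham mice J08, J15 or J16 (up to 0.149). The Grin2d difference under PLX3397+Anakinra was lost without J03, J04 or sham mouse J07 (up to 0.0726).

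The effect of each drug was then asked against vehicle. With PLX3397, 1 of the 10 genes was higher, Grin1, against 3.23% of all genes, and none was lower. Grin1 was at 324.7, 335.6, 347.6, 360.5 and 394.2 TPM, so the lowest 2 mice overlapped with the vehicle range. The fitted log2 fold change was 0.19 ± 0.06 with adjusted p = 0.0463. This call lay at the threshold and was lost when any 1 of 12 mice was left out (adjusted p up to 0.147). Those were vehicle mice J18B, J19B and J20B, PLX3397 mice J01, J12 and J19, Anakinra mouse J06, PLX3397+Anakinra mice J10 and J17, and sham mice J08, J15 and J16. Grin2c had a log2 fold change of -0.19 with an unadjusted limma p of 0.0267 and adjusted p = 0.149. In the same comparison all 8 microglia and macrophage genes were lower (median -1.32), 4 of 5 tested leukocyte genes were lower, and 4 of 10 pan-neuronal genes (median 0.17), 2 of 8 cortical excitatory neuron genes and 4 of 6 fibroblast and meningeal genes were higher. Their part in the Grin1 difference was not tested.

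With Anakinra, 0 of the 10 genes passed by limma against vehicle, where 0.116% of all genes did, and 2 had an unadjusted p below 0.05, as had 2148 of the 17267 genes tested. Grin2b was at 14.3, 18.3, 18.98, 20.6 and 32.7 TPM in Anakinra mice. Mouse J22 was within the vehicle range and the other 4 lay below every vehicle mouse. The log2 fold change was -0.62 with an interval from -0.998 to -0.24 (unadjusted p = 0.00255, adjusted p = 0.145), so it failed the correction. Grin2c had -0.18 (unadjusted p = 0.0377, adjusted p = 0.368). Summed fibroblast and meningeal markers also differed between these groups, with 100.96 to 716 TPM in vehicle and 788 to 1557 TPM in Anakinra mice, and 5 of these 6 genes had an unadjusted p below 0.05. So had 7 of 8 astrocyte genes (median -0.15), 5 of 8 oligodendrocyte genes (median -0.12) and 4 of 7 oligodendrocyte progenitor genes (median -0.16). None of these genes passed the correction, and their part in the Grin2b values was not tested.

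With PLX3397+Anakinra, Grin1 was again the only 1 of the 10 genes that was higher, against 7.88% of all genes. It was at 352.7, 355.7, 392.2, 396.7 and 419.1 TPM, and every value lay above the highest vehicle mouse, as was the case for 4.09% of all genes. The log2 fold change was 0.31 ± 0.06 (adjusted p = 0.000707), and the call held without each of the 24 mice in turn. Grin2a had a log2 fold change of 0.30 with an interval from 0.04 to 0.57 (adjusted p = 0.108), and passed without vehicle mouse J01B or J17B (adjusted p down to 0.0135). The AMPA genes had log2 fold changes between 0.06 and 0.13, and none passed.

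The AMPA subunits lay close together in the 4 injured groups. Gria1 had means of 204 ± 14.2 TPM in vehicle, 209.7 ± 13.5 in PLX3397, 194 ± 11.6 in Anakinra and 213 ± 8.86 TPM in PLX3397+Anakinra mice (SD, n = 5 each). Gria2 had 181 ± 20.4, 188 ± 18.6, 167 ± 14.8 and 189 ± 15.5 TPM in the same order. Their lowest means were in the Anakinra group, where no AMPA gene passed against vehicle and the ranges overlapped for all 4. Gria3 had 102 ± 12.6, 108 ± 9.37, 98.5 ± 6.75 and 111 ± 7.34 TPM, and Gria4 44.6 ± 3.43, 48.8 ± 3.42, 45.3 ± 4.26 and 48.2 ± 2.75 TPM.

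Genes of several neighbouring lists were higher in this comparison. Of the 16 AMPA auxiliary and assembly genes 8 were higher, among them Cacng3 (0.34 ± 0.06, adjusted p = 0.000521), Cacng8 (0.28 ± 0.06, adjusted p = 0.0022), Porcn (0.27 ± 0.04, adjusted p = 0.000102) and Cnih3 (0.33 ± 0.09, adjusted p = 0.0156). Of 23 scaffold and kinase genes 8 were higher, including Camk2a (0.30 ± 0.06, adjusted p = 0.00146), Camk2b (0.24 ± 0.06, adjusted p = 0.00795) and Dlg4, which encodes PSD-95 (0.23 ± 0.08, adjusted p = 0.0415). None was lower in either list. Grm2 (0.40 ± 0.11, adjusted p = 0.0118) and Grm8 (0.29 ± 0.09, adjusted p = 0.022) were higher among the metabotropic receptors, and none of the 8 further ionotropic receptors passed. Of the 10 pan-neuronal genes 8 were higher (median 0.22) and of 8 cortical excitatory neuron genes 6. All 8 microglia and macrophage genes were lower (median -1.49), with sums of 939 to 1199 TPM, and 4 of 6 fibroblast and meningeal genes were higher (709 to 1209 TPM). The part of these cell types in the Grin1 difference was not tested. The median over the 10 receptor genes was 0.12.

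Relative to the pan-neuronal genes, Grin1 was higher than in vehicle mice by 0.11 under PLX3397+Anakinra and by 0.085 under Anakinra. Under PLX3397+Anakinra Gria1 was lower by 0.14 and Gria4 by 0.09 on this relative scale. These 4 differences had no overlap (exact p = 0.00794, the smallest for 5 against 5 mice, adjusted p = 0.0488). Under Anakinra Gria1 was lower by 0.10 and Gria2 by 0.15, and under PLX3397 Grin2c was lower by 0.35 (exact p = 0.0159 each, adjusted p = 0.0488). Grin2b under Anakinra had -0.65 (exact p = 0.0476, adjusted p = 0.106) and passed without Anakinra mouse J22. Against vehicle the pan-neuronal genes had median log2 fold changes of 0.22 under PLX3397+Anakinra, 0.05 under Anakinra and 0.17 under PLX3397. These enter the relative values, and the share of all genes that would pass was not computed here either. All passing ratio tests shared the adjusted p of 0.0488, just below the threshold. As given above, none passed with the cortical excitatory neuron genes as reference, and none without any 1 of 17 mice.

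Comparing the treated groups with each other separated Anakinra alone from both groups that received PLX3397. PLX3397+Anakinra mice had 3 genes higher than Anakinra mice, Grin2b, Grin2a and Grin1, against 4.67% of all genes. Grin2b was at 33.3, 36.4, 39.1, 43.9 and 45.9 TPM, and every value lay above the 5 Anakinra mice. Its log2 fold change was 0.93 ± 0.18 (adjusted p = 0.000876). Grin2a was at 10.7, 11.4, 12.5, 12.7 and 14.3 TPM against 6.29, 7.41, 8.07, 9.29 and 10.3 TPM under Anakinra, again without overlap, with a log2 fold change of 0.53 ± 0.13 (adjusted p = 0.0059). A lack of overlap in this direction was found for 2 of the 10 genes and for 3.94% of all genes. The Grin1 difference of 0.20 ± 0.06 (adjusted p = 0.0349) was lost without Anakinra mouse J05 or J21 or without mouse J09, J10 or J17 (adjusted p up to 0.108). In this comparison all 8 microglia and macrophage genes were lower (median -1.42), 4 of 5 tested leukocyte genes were lower, and 4 of 10 pan-neuronal and 3 of 8 cortical excitatory neuron genes were higher.

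PLX3397 mice had 2 genes higher than Anakinra mice, against 1.29% of all genes. Grin2b was at 32.2, 36.6, 37.0, 42.7 and 43.3 TPM under PLX3397, where the lowest mouse lay just below the highest Anakinra mouse, with a log2 fold change of 0.88 ± 0.18 (adjusted p = 0.00247). Grin2a was between 10.9 and 13.3 TPM, above every Anakinra mouse, with a log2 fold change of 0.48 ± 0.13 (adjusted p = 0.0198). The Grin2a call was lost without PLX3397 mouse J01 or Anakinra mouse J06 or J21 (adjusted p up to 0.0753). Here too all 8 microglia and macrophage genes were lower (median -1.30), as were 3 of 5 tested leukocyte genes, while 4 of 8 oligodendrocyte genes were higher and 0 of 10 pan-neuronal genes passed by limma, 5 of them with an unadjusted p below 0.05. The part of these cell types in the Grin2a and Grin2b differences was not tested. Both comparisons share the Anakinra mice.

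PLX3397+Anakinra and PLX3397 mice differed in 0 of the 10 genes by limma, where 0.151% of all genes passed, and 1 gene, Grin2c, had an unadjusted p below 0.05, as had 1159 of the 17267 genes tested (log2 fold change 0.20, interval 0.03 to 0.36, adjusted p = 0.59). For Grin2b the interval of this difference ran from -0.33 to 0.43 and for Grin1 from -0.01 to 0.25. The interaction, which asks whether the drugs together differ from the sum of their separate differences, passed for 0 of the 10 genes and for 0% of all genes. Grin2c (0.37, unadjusted p = 0.00303, adjusted p = 0.433) and Grin2b (0.67, unadjusted p = 0.0171, adjusted p = 0.551) had an unadjusted p below 0.05, as had 1395 of all genes. A test of any difference over the 5 groups passed for 8 of the 10 genes, against 51.9% of all genes, and the exceptions were Grin2c (adjusted p = 0.0636) and Grin3a (adjusted p = 0.403).

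The study's own criteria were an unadjusted p below 0.05, a ratio of mean TPM above 2 and a difference above 4 TPM. With limma p in place of the study's own tests, 0 of the 10 genes met them in any of the 10 pairwise comparisons. By the same rule, 6.06% of all genes met them in at least 1. The largest ratio of mean TPM was 1.89, for Grin2b between PLX3397+Anakinra and Anakinra mice.

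The ratio of Grin2a to Grin2b is a common index of the maturity of NMDA receptors. It was 0.390, 0.442, 0.457 and 0.481 in the sham mice and 0.284, 0.284, 0.292, 0.334 and 0.354 in the vehicle mice. The ranges did not overlap, and the log2 ratio differed by -0.52 (exact p = 0.0159, the smallest that the design allows, adjusted p = 0.0847 over 8 tests). The ratio ranged from 0.279 to 0.341 under PLX3397, from 0.289 to 0.321 under PLX3397+Anakinra and from 0.314 to 0.489 under Anakinra, where the log2 ratio differed from vehicle by 0.39 (exact p = 0.0317, adjusted p = 0.0847). The ratio of Gria1 to Gria2 was 1.00 to 1.06 in sham mice and 1.04 to 1.17 in vehicle mice (log2 difference 0.14, exact p = 0.0317, adjusted p = 0.0847). None of the 8 tests passed the correction. With PLX3397 or PLX3397+Anakinra, both ratios differed from vehicle by at most 0.02 on the log2 scale.

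**Figure D4:**
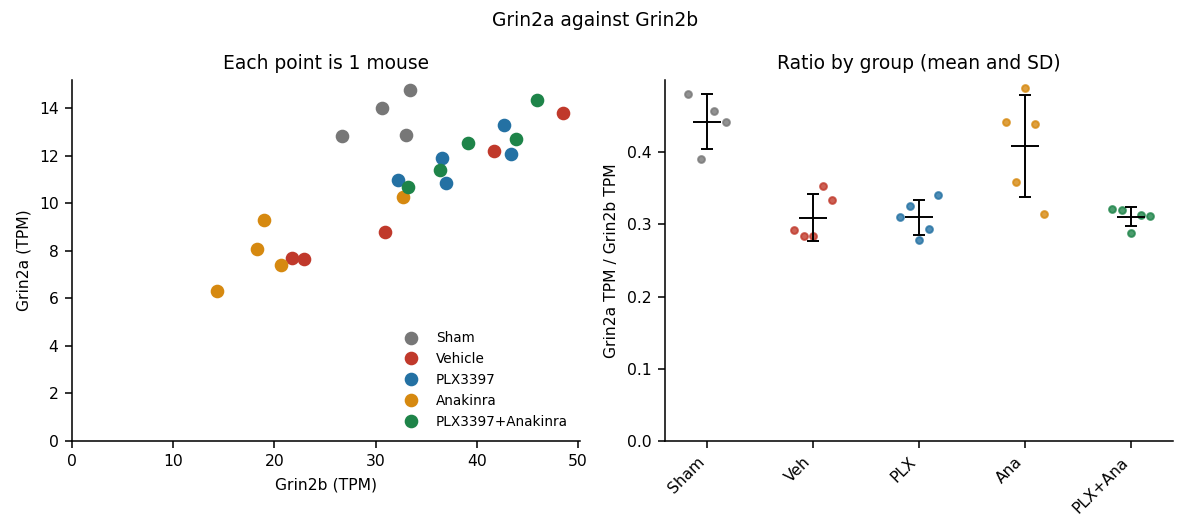
Left, Grin2a TPM (y axis) against Grin2b TPM (x axis) in each of 24 mice, coloured by group. Right, the ratio of Grin2a to Grin2b TPM by group, with points for mice and bars for the mean and SD. The sham mice had ratios of 0.390 to 0.481 above all vehicle, PLX3397 and PLX3397+Anakinra mice, and the 5 vehicle mice had ratios of 0.284 to 0.354.

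Grin2a and Grin2b varied together between mice. After subtraction of the group means, their log2(TPM + 1) values had a Pearson r of 0.90 over 24 libraries, the second highest of the 45 pairs after Gria2 with Gria3 at 0.93. Gria2 with Gria4 had 0.87 and Grin2c with Grin2d 0.81, while Gria2 with Grin2c had -0.24. These correlations are descriptions over libraries that share tissue, scaling and normalization.

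Within groups, the level of both genes also moved with an index computed from other genes of the same library. A long-transcript index was computed for each library as the median log2 deviation of 771 genes with a longest GENCODE transcript of at least 8000 bases minus that of 4315 genes of 1000 to 3000 bases, without the receptor genes. It ranged from 0.05 to 0.17 in sham, from -0.08 to 0.10 in vehicle, from -0.09 to 0.05 in PLX3397, from -0.16 to 0.05 in Anakinra and from -0.06 to 0.09 in PLX3397+Anakinra mice. Within groups its Pearson r with log2(TPM + 1) was 0.81 for Grin2a and 0.77 for Grin2b, whose longest transcripts have 14634 and 24060 bases, and lay between 0.47 and 0.72 for the other 8 genes, which range from 4276 to 10371 bases. The vehicle mice with high Grin2b, J01B and J17B, had the highest index of their group, 0.10 and 0.07, and Anakinra mouse J22, with 32.7 TPM, the highest of its group, 0.05.

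A fit with this index as a covariate, chosen after seeing the data, estimates the differences at equal index. The lowest sham index, 0.0508, lay above the highest PLX3397 index, 0.0474, so for these groups the fit extrapolates. The mean index was 0.118 in sham mice and lower in every injured group. Adjustment for it can therefore take away a part of the difference from sham itself. Grin2b was then higher in PLX3397+Anakinra than in Anakinra mice by 0.61 (adjusted p = 0.00352) and in PLX3397 than in Anakinra mice by 0.64 (adjusted p = 0.00232), in place of 0.93 and 0.88. The Grin2a differences were 0.31 in both comparisons (adjusted p = 0.0362 and 0.0352), in place of 0.53 and 0.48. The Grin1 difference between PLX3397+Anakinra and Anakinra mice no longer passed (0.11, adjusted p = 0.268). Grin1 was lower in vehicle than in sham mice by -0.57 (adjusted p = 3.11e-08), and Gria3 by -0.40 (adjusted p = 0.000108). Grin2a no longer passed there (-0.14, adjusted p = 0.274), nor did Gria1 (-0.12, adjusted p = 0.0779), and Grin2b was higher in vehicle than in sham mice (0.46, adjusted p = 0.0136). Against sham, Anakinra mice had 2 genes lower in this fit, Grin1 and Gria3, in place of 8. PLX3397 mice had the same 2 lower in place of 6, with Grin2b (0.81, adjusted p = 0.000322) and Grin3a (0.23, adjusted p = 0.0188) higher. PLX3397+Anakinra mice had 3 lower in place of 6, Grin1, Gria3 and Gria4, with Grin2b higher (0.78, adjusted p = 0.00034). What sets the index in these libraries was not tested. The share of all genes called in this fit is not given here. Whether the counts changed more for the receptor genes than for other genes therefore cannot be read from them.

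**Figure D5:**
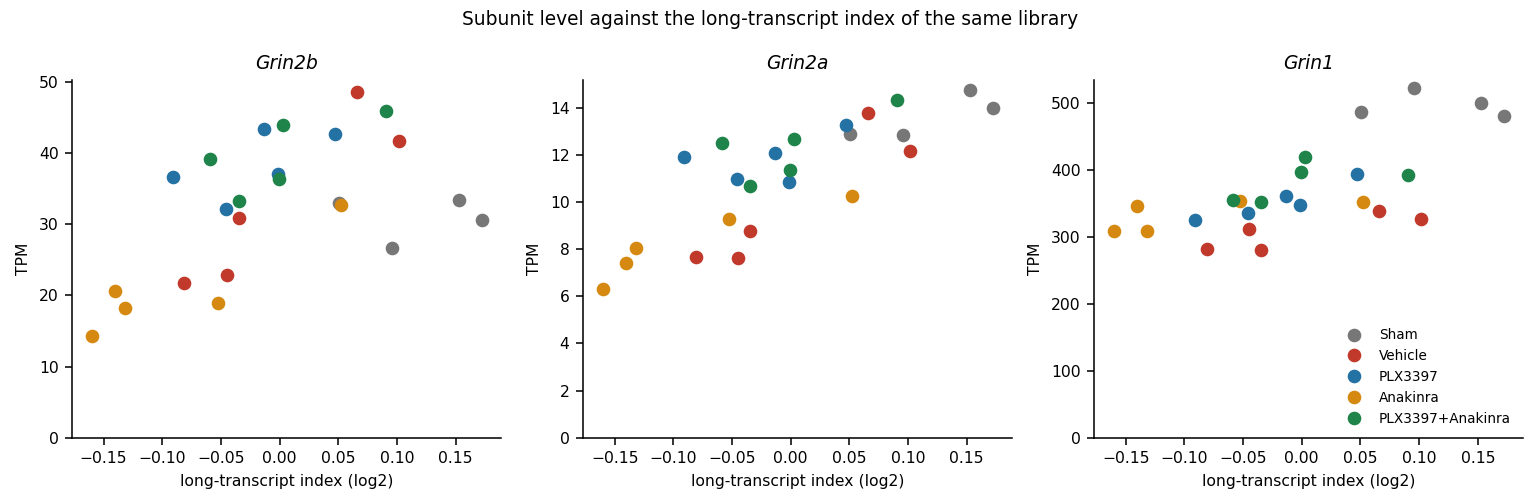
TPM (y axis, from 0) of Grin2b, Grin2a and Grin1 in each of 24 mice against the long-transcript index of the same library (x axis, log2), coloured by group. After subtraction of the group means, the index had a Pearson r of 0.77 with Grin2b and 0.81 with Grin2a (log2(TPM + 1)). The lowest index, -0.16, was that of an Anakinra mouse. The sham mice, with indices of 0.05 to 0.17, stand apart for Grin1, between 480.2 and 522 TPM. Their Grin2b was only 26.7 to 33.4 TPM, so Grin2b does not rise with the index over all groups.

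The genes most like each subunit were taken as the 3 with the highest Pearson r of log2(TPM + 1) over the 24 libraries of 5 groups. Gria2 was closest to Micu3 (0.98), Lnp (0.97) and Pja2 (0.97), and Gria3 to Kcnt2, A830010M20Rik and Kcnv1 (0.98 each). The genes closest to Gria1 included Ids (0.93) and Plppr4 (0.92), and Gria4 was closest to Map9, Frmpd4 and Prepl (0.96 each). The first neighbour of Grin1 was a row whose symbol had been turned into a date in the deposited table and is not named here, followed by Atg9a and Atcay (0.98 each). Grin2a was closest to Arfgef3 (0.96) and the potassium channel genes Kcnh7 (0.95) and Kcnh5 (0.94), and Grin2b to Dst (0.92), Mdn1 and Pura (0.91 each). Grin2d was closest to Rptor (0.95), Pkd1 (0.94) and Gm15800 (0.93). The 2 genes that did not pass over the 5 groups had the lowest values, with Grin2c closest to Phf2 and Sun2 (0.88 each) and Flt1 (0.87), and Grin3a to Camk2d (0.86), Gpr165 (0.81) and Usp47 (0.80). None of the 10 receptor genes was among these neighbours.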

How the data were processed

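The authors trimmed paired-end reads and processed them in CLC Genomics Workbench with an mm10 (GRCm38) annotation, and deposited values in TPM per gene and mouse. A rounded copy and a filtered copy with columns of the authors' own p and F values were not used. All 24 libraries entered 1 model with a mean per group in limma 3.58.1 (R 4.3.3) on log2(TPM + 1), for the 17267 genes averaging 0.5 TPM or more, with a variance trend and Benjamini-Hochberg adjustment over all genes. A gene was called at an adjusted p below 0.05. The fit was tested on simulated data. Ratios were tested by exact permutation of mice (scipy 1.17.1). Limma p-values set a difference of group means against the spread between mice, moderated over genes. Permutation p-values give the share of reassignments of mice with a difference at least as large. Genes named from a list were, per comparison, up to 4 called genes with the largest fold change, and exceptions to a list's direction were named after their values were seen. The receptor genes and the lists were chosen with earlier results of these data known. Counts and depth are not given in the sources used here. Alternatives were another pseudocount (0.1), other filters, a rescaling, other variance settings, only the compared groups and leaving out each mouse. A few genes that the naming rule selects are not reported here.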

Additional observations from a re-analysis of the deposited data

Results flagged for a closer look

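In each group the highest and lowest mouse of each gene were compared with the others by the gap to the nearest mouse relative to the group's range, 50 groups in all. Gria2 in vehicle mouse J17B was far from the others, at 216 TPM against 165 to 176 TPM. Gria4 in sham mouse J07 was low, at 54.2 TPM against 61.8 to 62.3 TPM. Chance alone gives about 1 such mark in 20 groups, and 2 were found.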

How the results depend on the processing

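With a pseudocount of 0.1, other filters, rescaling, other variance settings or only the compared groups, the counts of receptor genes called stayed within 1.5 times in all comparisons except PLX3397 versus vehicle. There the count fell from 1 to 0 without a filter beyond a mean above 0 TPM, with only the compared groups and with no variance trend. Single calls were less stable than the counts. Over 8 alternatives, the covariate fit included, Grin1 passed between PLX3397+Anakinra and Anakinra mice in 4. Gria1 passed between PLX3397+Anakinra and sham mice in 5 of the 8. Rescaling moved the median of all genes by at most 0.03 on the log2 scale. Animal number as a replicate block over the 3 pairs of vehicle and PLX3397 mice with a shared number gave 0 receptor genes and 703 genes in all, against 747 in the same 6 mice without it. Deviations of these pairs correlated at 0.173, -0.134 and -0.0656. Values from 3 pairs cannot tell whether mice with the same number shared a cage, a day of surgery or a batch. Vehicle mouse J17B and PLX3397+Anakinra mouse J17 also had a number in common, and they were not in this block. Without 1 mouse the count ranged from 0 to 2 for PLX3397 versus vehicle, from 1 to 3 for PLX3397+Anakinra versus vehicle (higher without J01B or J17B) and from 1 to 2 for PLX3397 versus Anakinra. With the long-transcript index as a covariate, chosen after seeing the data, the counts were 2 for Anakinra versus sham, 3 for PLX3397 versus vehicle, 2 for PLX3397+Anakinra versus vehicle and 5 for any difference over the 5 groups, and Grin2b turned from -0.58 to 0.17 in Anakinra versus sham mice (adjusted p = 0.539). Relative to cortical excitatory neuron genes, 0 of 40 ratio tests passed and the Grin1 difference between vehicle and sham mice turned from -0.15 to 0.0702. Without 1 mouse, 0 to 14 of these tests passed. The cause of these changes was not tested, and the share of all genes called with the index as a covariate is not given here. With the depth unknown, the counting error of each value could not be given.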
